A study of Homo sapiens with 4 samples.

Results

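The genes described here are a set of matrix metalloproteinases (MMPs), their tissue inhibitors (TIMPs) and BSG, measured by RNA sequencing in cultured breast cancer cells with and without depletion of hnRNPM, a nuclear protein that binds RNA. The set was named as MMP1, MMP2, MMP3, MMP7, MMP13, MMP14, TIMP1, TIMP2, TIMP3 and BSG, 10 genes in all. Of these, 8 were found by gene name in the table of 20329 genes, and MMP7 and MMP13 had no row. The set was chosen by its differences between knockdown and control in each line and between LM2 and BM1, on log2(FPKM + 1) in these same 4 libraries, so the values are given as a description and carry no test.

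The series holds 4 libraries, 1 for each combination of cell line and shRNA. Both lines derive from MDA-MB-231, a triple-negative human breast cancer line: BM1 (1833) is labelled as its bone metastasis derivative and LM2 (4175) as its lung metastasis derivative. Control cells of each line stably carried a non-specific shRNA and knockdown cells an shRNA against hnRNPM, so cells of all 4 libraries had been infected with a lentiviral shRNA vector. The sources used here do not give the shRNA sequences or whether more than 1 clone or culture entered a library. With 1 library per line and treatment, a difference within a line compares 2 libraries and has no replicate check.

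MMPs are zinc-dependent proteases that are made as inactive proenzymes and cut components of the extracellular matrix once their propeptide is removed. TIMPs bind the active site of these enzymes and block it. MMP14 is anchored in the plasma membrane and, with TIMP2 as an adaptor, activates pro-MMP2. BSG (basigin, also called CD147 or EMMPRIN) is a membrane glycoprotein first described on tumour cells as an inducer of MMP production in neighbouring fibroblasts, and it also escorts monocarboxylate transporters to the cell surface. In breast cancer, MMP1 and MMP2 have been studied as genes linked to spread to bone and lung, in part with derivatives of MDA-MB-231. Their differences between BM1 and LM2 are therefore not independent of that work.

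Promoter windows of 300 bases, 250 before and 50 after the annotated start of transcription, were read from RefSeq (GRCh38.p14) to show the regulatory sequence of members with unlike values. Windows were found for 4 of the 8 measured members: MMP14, TIMP1, TIMP3 and, with 2 starts, BSG. The MMP14 window is shown because this gene was lower in the knockdown library of both lines, and the TIMP1 and TIMP3 windows because neither inhibitor was at least 2-fold lower in the knockdown library of either line. Capitals mark GC boxes, the letters GGGCGG on either strand. The windows lie on the plus strand at chr14:22836335-22836634 (MMP14), chrX:47582186-47582485 (TIMP1) and chr22:32801455-32801754 (TIMP3).

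MMP14: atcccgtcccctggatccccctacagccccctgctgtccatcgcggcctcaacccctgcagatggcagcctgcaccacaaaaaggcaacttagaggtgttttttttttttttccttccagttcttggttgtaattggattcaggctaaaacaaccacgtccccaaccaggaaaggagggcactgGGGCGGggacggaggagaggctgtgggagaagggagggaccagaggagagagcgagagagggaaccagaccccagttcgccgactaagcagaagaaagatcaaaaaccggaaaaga

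TIMP1: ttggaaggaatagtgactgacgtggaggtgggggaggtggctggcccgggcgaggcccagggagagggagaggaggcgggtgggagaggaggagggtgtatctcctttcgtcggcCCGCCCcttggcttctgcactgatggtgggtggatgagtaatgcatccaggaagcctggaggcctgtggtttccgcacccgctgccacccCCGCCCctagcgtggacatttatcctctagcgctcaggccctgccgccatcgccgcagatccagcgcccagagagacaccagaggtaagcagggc

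TIMP3: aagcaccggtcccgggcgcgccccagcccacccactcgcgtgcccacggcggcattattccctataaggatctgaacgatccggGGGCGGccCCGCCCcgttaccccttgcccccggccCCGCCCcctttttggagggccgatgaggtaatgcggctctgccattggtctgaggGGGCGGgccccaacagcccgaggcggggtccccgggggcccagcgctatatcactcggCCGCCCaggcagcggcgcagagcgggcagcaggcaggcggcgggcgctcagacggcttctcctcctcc

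The MMP14 window held 1 GC box, which began 66 bases before the start. TIMP1 held 2, at 135 and 45 bases before the start, and TIMP3 held 5, between 166 and 18 bases before it. GC boxes were found in 45% of all 35116 windows, so their presence does not set these genes apart. TGANTCA, a pattern used here for sites of AP-1 (the family of FOS and JUN proteins), was in none of the 5 windows of members. It was in 7.71% of all windows on either strand. Variants of this pattern were not sought. TATAAA was in 1 of the 2 BSG windows, on the strand opposite to the gene, and in 11.5% of all windows. The matches did not overlap each other. A match describes letters only, and a missing match says nothing about a factor. The GC content was 55.0% in the MMP14 window, 65.0% in that of TIMP1 and 72.7% in that of TIMP3.

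The deposited values are FPKM, fragments scaled to the length of the gene and the depth of the library, so levels can be compared between genes. Low values fell on steps that put the depth at about 31200000 fragments in the BM1 control library and 22800000 fragments in the BM1 knockdown, against 41500000 fragments in the LM2 control library and 27300000 fragments in the LM2 knockdown. The targeted gene, HNRNPM, was left at 16.6% of its control level in BM1 and 15.4% in LM2. The labelled cell type was checked on markers: VIM (1160 to 2354 FPKM), AXL (250 to 374 FPKM), CD44 (155 to 223 FPKM) and CAV1 (148 to 335 FPKM), 4 of 4 genes high in this line, were high in every library. Of 5 genes known to be absent or low in it, ESR1 and PGR had no row, and ERBB2 (13.5 to 21.9 FPKM) and EPCAM (2.999 to 4.59 FPKM) were present at lower levels. CDH1, the epithelial cadherin, was higher in both knockdown libraries, at 0.489 and 4.08 FPKM in BM1 and 0.17 and 2.30 FPKM in LM2 (control, then knockdown), and its part in the results was not tested. Leukocyte and endothelial markers were each represented by 1 gene with a row, CSF1R (0.101 to 0.375 FPKM) and VWF (0.0300 to 0.163 FPKM), and the other 6 of 8 had none. In bulk RNA, fewer cells that express a gene and less RNA per cell cannot be told apart.

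**Figure D1:**
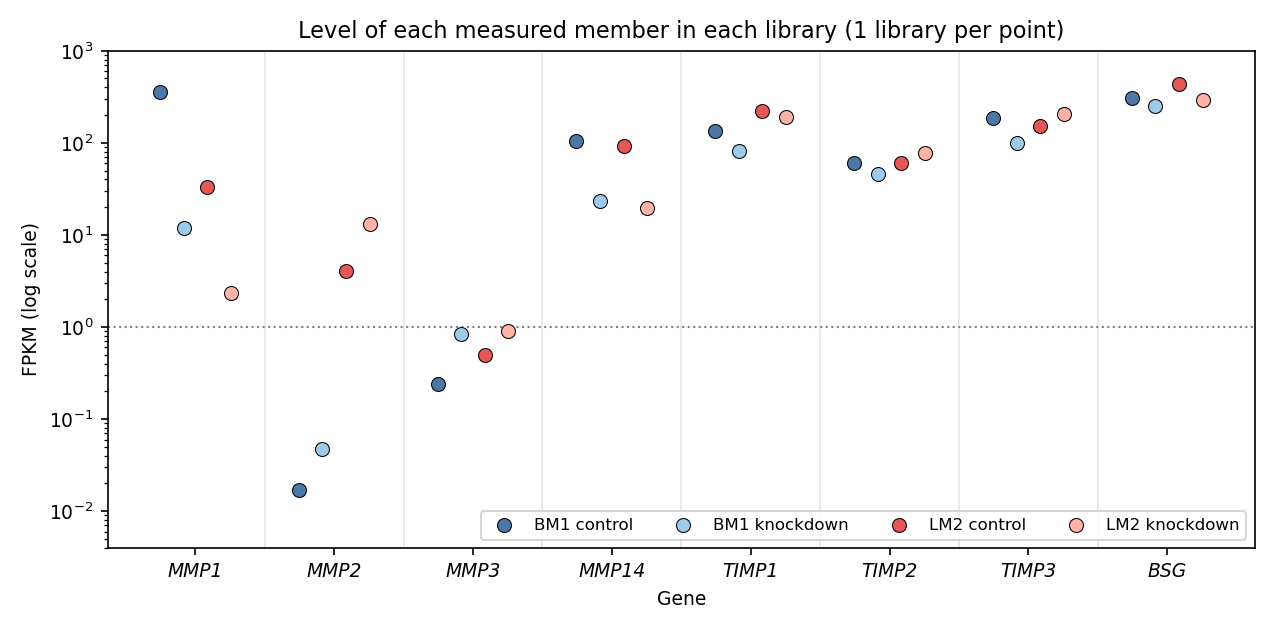
FPKM (log scale) of each measured member, 1 point per library, with a dotted line at 1 FPKM. MMP1 spans 2.34 to 355 FPKM, MMP14 is at 92.7 and 105 FPKM in controls and at 19.5 and 23.4 FPKM in knockdown libraries, and MMP2 is seen above 1 FPKM in LM2 alone.

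MMP1 had the largest knockdown minus control difference of the members in each line on the log2(FPKM + 1) scale. MMP1 (ENSG00000196611.4, chromosome 11, 102660651 to 102668891, minus strand, GRCh37 per the submitters' processing notes) encodes interstitial collagenase, which cleaves fibrillar collagens. It was at 355 FPKM in the BM1 control, 11.9 FPKM in the BM1 knockdown, 33.3 FPKM in the LM2 control and 2.34 FPKM in the LM2 knockdown library. Both control libraries were above both knockdown libraries, and the BM1 library was the higher one under each treatment. The BM1 knockdown library held 3.34% of the control level and the LM2 knockdown library 7.03%. On the log2(FPKM + 1) scale these differences were -4.79 in BM1 and -3.36 in LM2. Among the 13928 genes with a mean of at least 1 FPKM, that in BM1 was the lowest of all and that in LM2 the fourth lowest. Among all genes MMP1 stood at percentile 99.2 in the BM1 control library and at percentile 44.3 in the LM2 knockdown library.

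MMP14 showed the same direction, with nearly the same values in both lines. MMP14 (ENSG00000157227.12, chromosome 14, 23305766 to 23318236, plus strand) encodes the membrane-anchored collagenase MT1-MMP. Its level was 105 FPKM in the BM1 control and 92.7 FPKM in the LM2 control, against 23.4 FPKM in the BM1 knockdown and 19.5 FPKM in the LM2 knockdown library. The controls lay far above the knockdown libraries, with no overlap, and the lines differed little. The BM1 knockdown library held 22.3% of its control level and the LM2 knockdown library 21.0%, or differences of -2.12 and -2.19 on the log2(FPKM + 1) scale. MMP1 differed from MMP14 in that its level also separated the control libraries of the lines: the LM2 minus BM1 difference between controls was -3.38 for MMP1 and -0.17 for MMP14.

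MMP2 set the lines apart in the other direction. MMP2 (ENSG00000087245.12, chromosome 16, 55423612 to 55540603, plus strand) encodes gelatinase A, which degrades denatured collagen and collagen IV of basement membranes. It was at 0.0171 FPKM in the BM1 control and 0.0469 FPKM in the BM1 knockdown, against 4.07 FPKM in the LM2 control and 13.1 FPKM in the LM2 knockdown library. The BM1 values correspond to about 2 and 4 fragments, with exact 95% Poisson intervals of 0.00207 to 0.0619 and 0.0128 to 0.120 FPKM that cover counting error only and overlap. No difference between the BM1 libraries was therefore detectable at this depth. The LM2 values correspond to about 632 and 1332 fragments (intervals of 3.76 to 4.40 and 12.4 to 13.8 FPKM). These intervals leave out the spread between cultures and test no difference. The LM2 knockdown minus control difference was 1.47 on the log2(FPKM + 1) scale. MMP2 passed the filter of a mean of 1 FPKM through the LM2 libraries alone.

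MMP3 was low throughout. MMP3 (ENSG00000149968.11, chromosome 11, 102706532 to 102714534, minus strand) encodes stromelysin 1, which cuts proteoglycans, laminin and fibronectin and can activate pro-MMP1. It was at 0.238 FPKM in the BM1 control, 0.849 FPKM in the BM1 knockdown, 0.502 FPKM in the LM2 control and 0.909 FPKM in the LM2 knockdown library, or about 15, 39, 42 and 50 fragments. Both knockdown libraries were above both controls, opposite to its chromosomal neighbour MMP1. The 95% Poisson intervals, for counting error only, were 0.133 to 0.393 and 0.604 to 1.16 FPKM in BM1 and 0.362 to 0.679 and 0.675 to 1.20 FPKM in LM2. With a mean of 0.62 FPKM, MMP3 was the 1 measured member below the filter. The intervals overlap in LM2 and not in BM1, and they test no difference. On the log2(FPKM + 1) scale its differences were 0.58 and 0.35, and with a pseudocount of 0.1 they were 1.49 and 0.75. Their size thus depends on the pseudocount for so low a gene.

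The inhibitors were abundant in every library. TIMP1 (ENSG00000102265.11, chromosome X, 47441712 to 47446188, plus strand), a secreted inhibitor with little action on MMP14, was at 134 FPKM in the BM1 control and 81.3 FPKM in the BM1 knockdown, and at 219 FPKM in the LM2 control and 190 FPKM in the LM2 knockdown library. Both LM2 libraries were above both BM1 libraries, and in each line the knockdown library was the lower one (-0.71 in BM1 and -0.21 in LM2, log2). These sizes are under 2-fold, and after removal of the trend with transcript length and GC content, an alternative chosen after seeing the data, they were -0.36 and -0.06.

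TIMP2 and TIMP3 were lower in the BM1 knockdown and higher in the LM2 knockdown than in the control. TIMP2 (ENSG00000035862.12, chromosome 17, 76849059 to 76921469, minus strand), the inhibitor that links pro-MMP2 to MMP14, was at 59.8 FPKM in the BM1 control and 46.2 FPKM in the BM1 knockdown, and at 60.8 FPKM in the LM2 control and 77.1 FPKM in the LM2 knockdown library. The controls were nearly level, and the knockdown libraries lay on either side of them. TIMP3 (ENSG00000100234.11, chromosome 22, 33197687 to 33259030, plus strand), which stays bound to the matrix and also inhibits ADAM proteases, was at 186 FPKM in the BM1 control, 98.4 FPKM in the BM1 knockdown, 152 FPKM in the LM2 control and 208 FPKM in the LM2 knockdown library. Its BM1 knockdown library was the lowest and its LM2 knockdown library the highest of the 4. The differences of knockdown minus control were -0.36 and 0.34 for TIMP2 and -0.91 and 0.45 for TIMP3 (log2, BM1 then LM2). Whether the lines differ in these was not tested, since 4 libraries leave nothing to test it with, and of all 13928 genes 30.9% differed in sign between the lines.

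The values of TIMP2 and TIMP3 share sequence with short genes on the other strand. RP11-323N12.5, an entry of 367 bases inside TIMP2, was at 145, 131, 164 and 215 FPKM (BM1 control and knockdown, then LM2), and Z98256.1, an entry of 415 bases inside TIMP3, at 366, 193, 245 and 447 FPKM. Their order over the libraries was the same as that of the gene they lie in. Per the labels the libraries are stranded, but the sources used here do not say whether counting used strand, so reads of these pairs cannot be told apart. TIMP1 overlaps SYN1 on the opposite strand, which was at 0.0524 to 0.0792 FPKM, and BSG overlaps AC009005.2 on the opposite strand, which was at 2.65 to 5.28 FPKM. MMP1, MMP2, MMP3 and MMP14 overlap no other entry of the table.

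BSG was the most abundant member in every library except the BM1 control, where MMP1 was. BSG (ENSG00000172270.18, chromosome 19, 571277 to 583493, plus strand) was at 303 FPKM in the BM1 control, 251 FPKM in the BM1 knockdown, 440 FPKM in the LM2 control and 293 FPKM in the LM2 knockdown library. Both knockdown libraries were below both controls, by a small margin. The differences were -0.27 in BM1 and -0.59 in LM2 (log2), and the one in BM1 became 0.02 after removal of the length and GC trend.

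**Figure D2:**
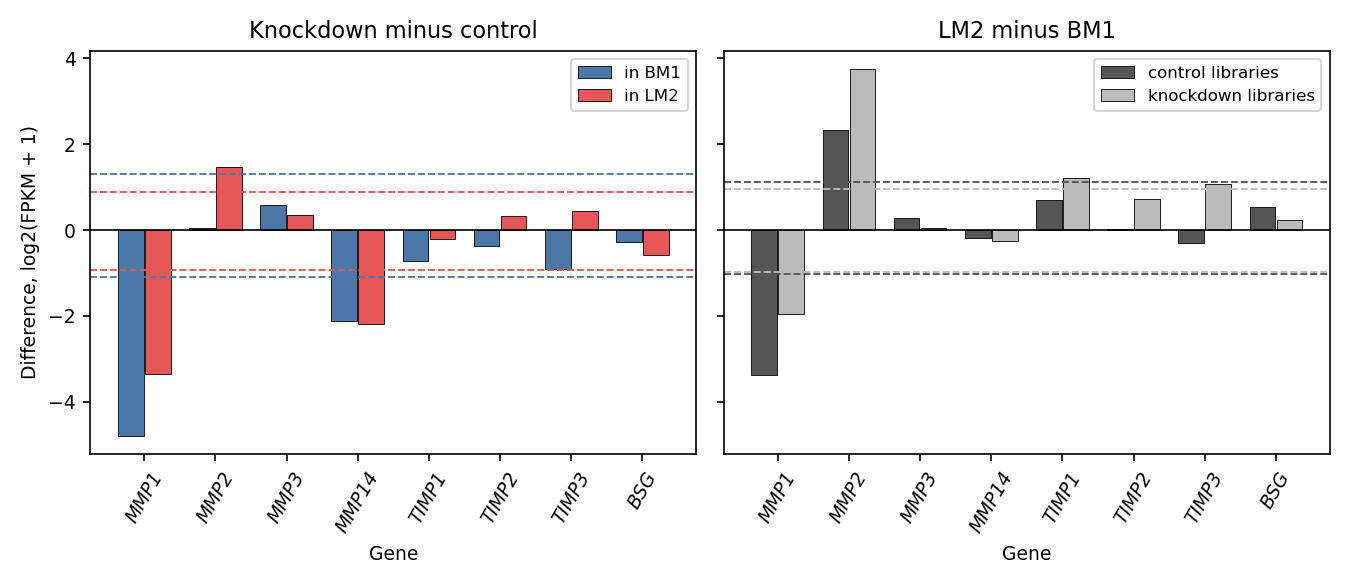
Differences on the log2(FPKM + 1) scale for each member, knockdown minus control in BM1 and LM2 (left) and LM2 minus BM1 among controls and among knockdown libraries (right). Dashed lines of the same colour mark the 5th and 95th percentiles of all 13928 genes, and MMP1 and MMP14 lie below the lower line in both lines on the left.

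The 7 members above the filter were then counted against all genes. At least 2-fold lower in the knockdown library were 2 of 7 in BM1, where 6.20% of all genes were, and 2 of 7 in LM2, where 4.24% were. They were MMP1 and MMP14 in both lines, and 1.95% of all genes were at least 2-fold lower in both. At least 2-fold higher were 0 of 7 in BM1 (10.1% of all genes) and 1 of 7 in LM2, MMP2 (3.83%). MMP1, MMP14 and BSG had both knockdown libraries below both controls, 3 of 7, where 22.6% of all genes did. Another 21.8% had both above, and 44.4% were apart in either direction. The median difference of the 7 was -0.71 in BM1 and -0.21 in LM2, beside medians of 0.0047 and -0.04 over all genes. Since these contrasts chose the members, nothing is read from the shares.

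Between the lines, MMP1 was at least 2-fold lower in LM2 under both treatments (-3.38 among controls and -1.94 among knockdown libraries). At least 2-fold lower in LM2 were 5.26% of all genes among controls and 4.63% among knockdown libraries. MMP2 was at least 2-fold higher under both treatments (2.32 and 3.75), where 6.98% and 4.41% of all genes were. With a pseudocount of 0.1 these MMP2 differences were 5.16 and 6.49, since its BM1 values are far below 1 FPKM. TIMP1 (0.71 and 1.21) and TIMP3 (-0.29 and 1.07) passed 2-fold among knockdown libraries only, and no test of that difference between treatments was possible. MMP2, TIMP1 and TIMP2 had both LM2 libraries above both BM1 libraries, 3 of 7, where 19.4% of all genes did and 41.0% were apart in either direction. The knockdown and line differences use the same 4 libraries and are not independent of each other.

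The balance of transcripts for proteases and inhibitors differed in every library. The 4 MMP members summed to 460 FPKM in the BM1 control, 36.1 FPKM in the BM1 knockdown, 131 FPKM in the LM2 control and 35.8 FPKM in the LM2 knockdown library. The 3 TIMPs summed to 379, 226, 432 and 475 FPKM in the same order. The controls were far apart in their MMP sums, and the knockdown libraries were nearly level in sum but unlike in makeup. MMP1 made up 32.9% of the sum in the BM1 knockdown and 6.54% in the LM2 knockdown library. MMP2 was at 0.0469 FPKM in the BM1 knockdown and 13.1 FPKM in the LM2 knockdown. The ratio of TIMP to MMP sums was 0.824 in BM1 control cells and 6.26 after knockdown, against 3.30 in LM2 control cells and 13.2 after knockdown. MMP1 made up 77.2% of the MMP sum in the BM1 control and 25.5% in the LM2 control, where MMP14 made up 71.0%. MMP14 was above TIMP2 in the controls (ratios of 1.75 in BM1 and 1.52 in LM2) and below it in the knockdown libraries (0.505 and 0.253). These are ratios of transcripts, not of proteins.

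**Figure D3:**
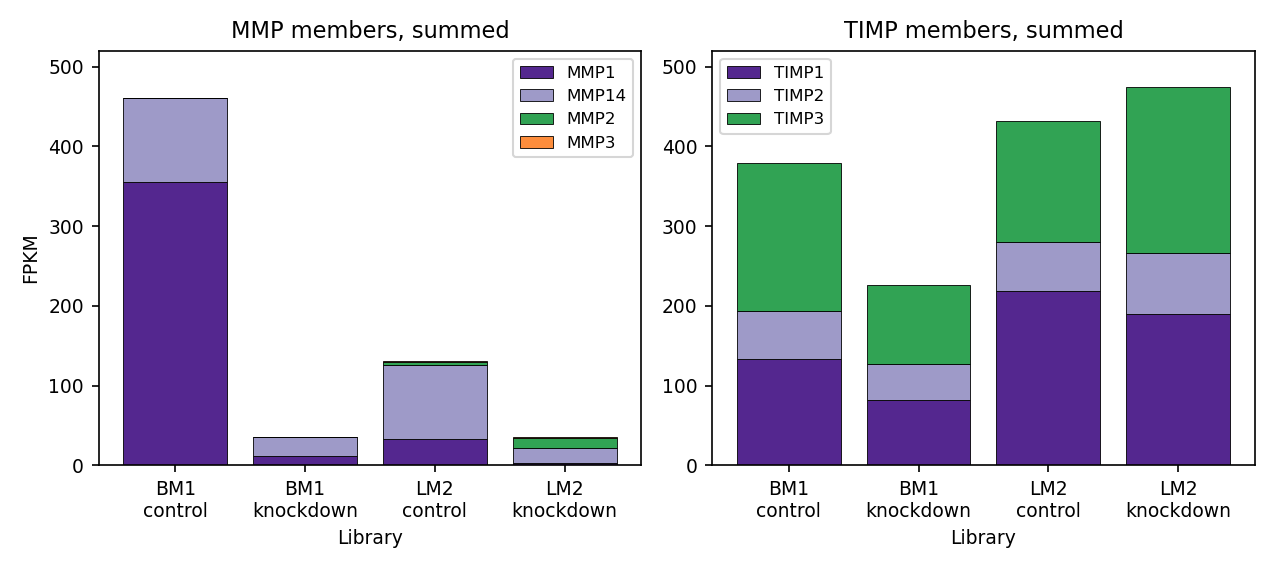
FPKM of the MMP members (left) and the TIMP members (right) stacked for each library, with 1 library per bar and no error. The MMP sum is 460 FPKM in the BM1 control and 36.1 and 35.8 FPKM in the knockdown libraries, while the TIMP sum stays between 226 and 475 FPKM.

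MMP1 and MMP3 lie in a cluster of MMP genes on chromosome 11. The other 6 entries within 500 kb of MMP1 were taken by position after values were seen. Of these, 3 were at least 2-fold higher in the BM1 knockdown library (10.1% of all genes were) and 1 in the LM2 knockdown library (3.83%), and none was at least 2-fold lower in either line. The shares are of the genes above the filter, and 1 of the 6 entries, RP11-690D19.3, was below it. TMEM123 was at 13.0 and 108 FPKM in BM1 and 28.1 and 77.0 FPKM in LM2 (control, then knockdown). BIRC3, an inhibitor of apoptosis, was at 2.06 and 10.9 FPKM in BM1 and 4.25 and 6.27 FPKM in LM2, and BIRC2 of the same family at 10.8 and 23.6 FPKM and 19.8 and 29.7 FPKM. 

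The genes most like MMP1 and MMP2 were sought over the 4 libraries by the distance between profiles of log2(FPKM + 1), each centred on its mean. With 4 points a small distance is a description. Closest to MMP1 were AC009120.6 (distance 1.98), HMGA1 (2.23), FBP1 (2.39), TGFBR2 (2.43) and GLUL (2.58), while MMP1 itself lies 4.92 from a flat profile and the median gene 0.65. HMGA1, a chromatin protein that binds AT-rich DNA, was at 616 and 68.9 FPKM in BM1 and 275 and 46.8 FPKM in LM2. TGFBR2, a receptor for TGF-beta, was at 56.4 and 6.84 FPKM in BM1 and 37.2 and 3.76 FPKM in LM2. AC009120.6 overlaps other entries on both strands, so its values are uncertain. Closest to MMP2 were RP11-150O12.6 (0.15), TNFSF4 (0.35), PAPPA-AS1 (0.63), SNORD36A (0.64) and FBXO32 (0.67). The added 1 compresses values below 1 FPKM, so these distances hide fold differences in BM1. There MMP2 was at 0.0171 and 0.0469 FPKM, RP11-150O12.6 at 0.972 and 1.03 FPKM and FBXO32 at 3.45 and 2.46 FPKM. TNFSF4, a ligand of the tumour necrosis factor family, was at 0.359 and 0.721 FPKM in BM1 and 5.54 and 15.5 FPKM in LM2. PAPPA-AS1 overlaps PAPPA on the opposite strand and SNORD36A lies within RPL7A, so both are uncertain.

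The other genes of the pathway were tested with limma, in 1 fit over 13928 genes with terms for line and treatment, 1 residual degree of freedom and Benjamini-Hochberg adjustment over all genes. Of 109 genes in 9 lists, 81 had a row and 65 passed the filter. In the knockdown contrast 7 of the 65 were called higher and 3 lower, beside 2.71% and 2.76% of all genes (5.47% in either direction), and the median was 0.06 beside -0.01 over all genes. None of these genes was called with a pseudocount of 0.1, with no filter, under quantile normalization, with no pairing by line, or when any of the 4 libraries was left out. At an unadjusted p under 0.05, the main limma fit held 29 of the 65 and 3465 of all 13928 genes. With a pseudocount of 0.1 limma gave 27 of 65 (3030 of 13928 genes), and with no filter 29 of 81 (3735 of 20329). Quantile normalization gave 28 of 65 (3255 of 13928), and the fit with no pairing by line 16 of 65 (1548 of 13928).

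Transcription factors that act at MMP promoters included 2 genes called lower and none called higher, of 16 tested (median -0.44). JUN, the AP-1 subunit, was at 44.1 and 12.7 FPKM in BM1 and 49.9 and 22.9 FPKM in LM2 (control, then knockdown), a change of -1.40 ± 0.27 (log2, standard error, limma, adjusted p 0.0266). ETV4, an ETS factor known as PEA3, was at 42.9 and 15.6 FPKM in BM1 and 32.7 and 13.9 FPKM in LM2 (-1.29 ± 0.25, limma, adjusted p 0.0274). ETV4 overlaps DHX8 on the opposite strand. JUND had the largest difference of the list, 1.56 ± 0.38, at an adjusted p of 0.0515 in limma. It was at 5.10 and 31.7 FPKM in BM1 and 11.6 and 19.5 FPKM in LM2.

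Among proteases related to MMPs, 2 of 6 ADAM genes and 1 of 6 ADAMTS genes were called higher and none was called lower. ADAM9 was at 29.9 and 122 FPKM in BM1 and 57.7 and 98.9 FPKM in LM2 (1.38 ± 0.33, limma, adjusted p 0.0465). ADAM17, the sheddase of tumour necrosis factor that TIMP3 inhibits, was at 14.6 and 29.7 FPKM in BM1 and 9.36 and 24.5 FPKM in LM2 (1.14 ± 0.26, limma, adjusted p 0.0413), and it overlaps IAH1 on the opposite strand. ADAM10, the sheddase of Notch, was at 4.69 and 18.5 FPKM and at 12.1 and 18.9 FPKM, with an adjusted p of 0.0674 in limma. Lower in both knockdown libraries without a call were ADAM15, at 57.5 and 20.0 FPKM in BM1 and 27.7 and 18.0 FPKM in LM2 (adjusted p 0.0756 in limma), and ADAM8 (adjusted p 0.129). In the fit without the BM1 control library, which also drops the pairing by line, the ADAM9 change was 0.91. ADAMTS15 was at 8.43 and 22.8 FPKM in BM1 and 5.36 and 12.5 FPKM in LM2 (1.21 ± 0.25, limma, adjusted p 0.0340). Within the lines its difference was 1.338 in BM1 and 1.085 in LM2. Its change was 0.80 in the fit without the BM1 knockdown library, again with no pairing by line. The ADAM9 and ADAMTS15 values of these fits thus take in part of the line difference. None of the 4 other MMPs tested was called (1 at an unadjusted p under 0.05 in limma). MMP15, a second membrane-anchored MMP, was at 0.904 and 3.12 FPKM in BM1 and 1.07 and 1.93 FPKM in LM2.

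Partners that bind MMPs and TIMPs or take them up included 3 genes called higher of 8 tested. THBS1, thrombospondin 1, was at 39.6 and 324 FPKM in BM1 and 170 and 472 FPKM in LM2 (2.24 ± 0.36, limma, adjusted p 0.0158), and it overlaps other entries on both strands. ITGAV, the integrin alpha V subunit, was at 3.85 and 20.0 FPKM in BM1 and 15.2 and 30.9 FPKM in LM2 (1.55 ± 0.32, limma, adjusted p 0.0313), and it overlaps an entry on the opposite strand. EFEMP1, a fibulin that binds TIMP3, was at 12.5 and 33.9 FPKM in BM1 and 5.45 and 11.7 FPKM in LM2 (1.17 ± 0.26, limma, adjusted p 0.0394). Fits on 3 libraries, which also drop the pairing by line, moved all 3 genes. Without the BM1 control the changes were 1.20 for THBS1 and 0.68 for ITGAV, and without the LM2 control 2.42 for ITGAV. For EFEMP1 the change was 0.44 when the BM1 knockdown was left out and 0.64 when the LM2 control was. It was 1.90 when the LM2 knockdown was left out. Within the lines the differences were 3.001 and 1.471 for THBS1, 2.116 and 0.976 for ITGAV and 1.37 and 0.972 for EFEMP1 (BM1, then LM2). The values of the fits on 3 libraries thus take in part of the line difference. Partners of BSG had no call among 7 tested (3 at an unadjusted p under 0.05 in limma). NPTN, a BSG homologue, was at 21.7 and 49.97 FPKM in BM1 and 33.2 and 63.3 FPKM in LM2 (adjusted p 0.0514 in limma), and CAV1, which binds BSG, had an adjusted p of 0.133.

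Matrix substrates of the MMPs held 1 gene called higher of 10 tested. COL1A1, the main chain of collagen I cut by MMP1 and MMP14, was at 1.94 and 11.1 FPKM in BM1 and 29.2 and 74.2 FPKM in LM2 (1.67 ± 0.28, limma, adjusted p 0.0170). In the fit without the BM1 control library, which also drops the pairing by line, its change was -0.0053. It was 0.35 without the LM2 knockdown, 3.0 without the BM1 knockdown and 3.35 when the LM2 control was left out. COL1A1 is also a fibroblast marker. The 6 of 8 fibroblast markers with a row summed to 3.63 and 15.2 FPKM in BM1 and 30.1 and 79.3 FPKM in LM2, and to 1.69, 4.16, 0.875 and 5.09 FPKM without COL1A1, with no row for COL1A2 and DCN. Their part in these results was not tested.

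None of the 5 tested proteases that activate proenzymes of MMPs was called (2 at an unadjusted p under 0.05 in limma). PLAU, the urokinase whose product plasmin activates several pro-MMPs, was at 108 and 45.9 FPKM in BM1 and 228 and 184 FPKM in LM2, and PLAT at 122 and 57.6 FPKM and at 79.4 and 57.7 FPKM. Neither was called (adjusted p 0.156 and 0.131 in limma). The 3 other inhibitors tested were not called either, and none was at an unadjusted p under 0.05 in limma. TIMP4 was at 2.30 and 2.72 FPKM in BM1 and 3.26 and 5.38 FPKM in LM2, and RECK, a membrane-anchored MMP inhibitor, at 2.79 and 2.83 FPKM and at 3.05 and 6.36 FPKM.

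**Figure D4:**
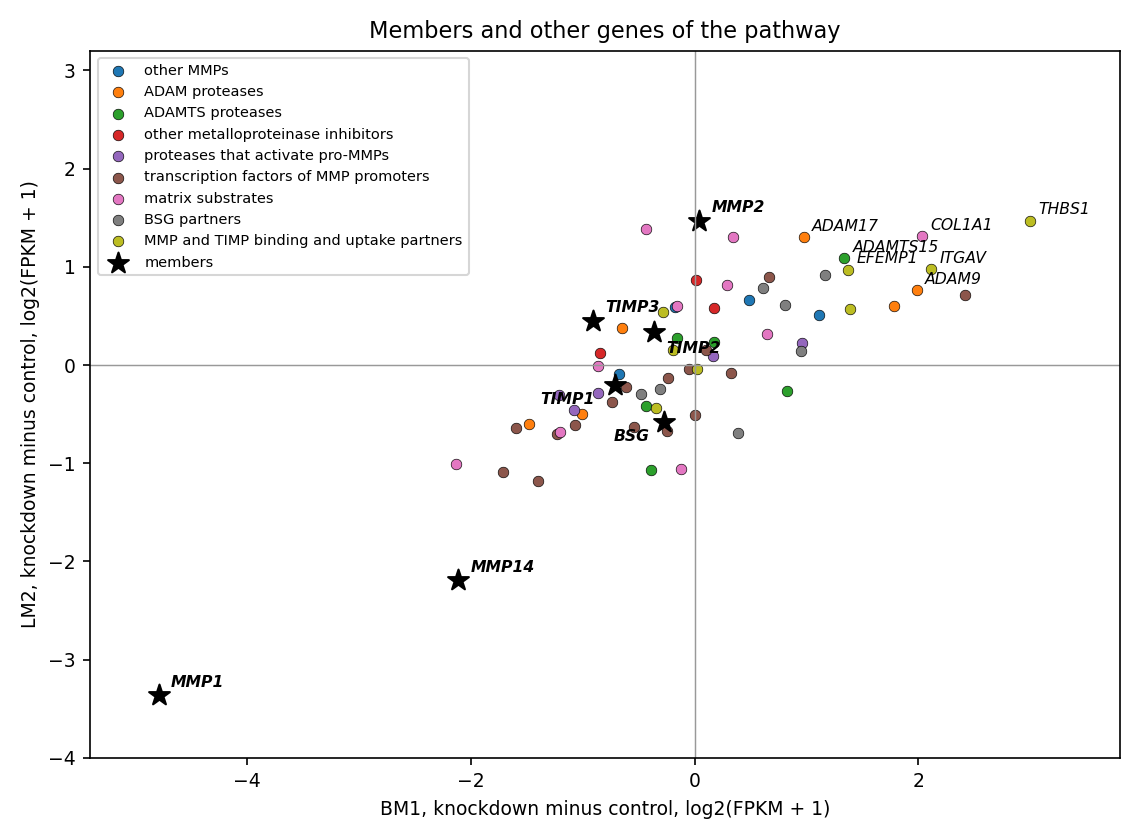
Knockdown minus control on the log2(FPKM + 1) scale in BM1 (horizontal) and LM2 (vertical) for the 7 members above the filter (stars) and the 65 other genes, coloured by list; names mark members and the 7 genes called higher by limma. MMP1 and MMP14 lie at the lower left and THBS1 at the upper right.

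Between the lines, 12 of the 65 genes were called higher in LM2 and 3 lower in the same limma fit, beside 2.31% and 2.04% of all genes (4.35% in either direction). In this contrast the control and knockdown libraries of a line served as its replicates. The median of the 65 was 0.39 beside -0.01 over all genes. These 15 calls became 7 at a pseudocount of 0.1, 5 under quantile normalization, 2 with no term for treatment and 0 with no filter. Leaving out the BM1 control gave 1, the BM1 knockdown 0, and either LM2 library 2. At an unadjusted p under 0.05, the main limma fit held 26 of the 65 and 3114 of all 13928 genes. With no filter, limma gave 31 of 81 at that level, beside 3634 of 20329 genes.

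Matrix substrates supplied 7 of the 12, of 10 tested. SPARC, a collagen-binding matrix protein, was at 2.13 and 1.31 FPKM in BM1 and 248 and 651 FPKM in LM2 (7.23 ± 0.40, log2, standard error, limma, adjusted p 7.52e-05). COL1A1 differed by 3.001 ± 0.28 (limma, adjusted p 0.00109). The other 5 were COL4A1, COL4A2, COL5A1, FN1 and TNC, with differences from 1.56 to 2.83, and COL4A1 and COL4A2 overlap each other on opposite strands. Proteases that activate pro-MMPs supplied 3 of 5: CTSB (cathepsin B), FURIN, which removes the propeptide of MMP14, and PLAU. CTSB was at 31.04 and 16.6 FPKM in BM1 and 177 and 145 FPKM in LM2 (2.76 ± 0.27, limma, adjusted p 0.00127). FURIN was at 5.74 and 12.1 FPKM in BM1 and 25.9 and 30.4 FPKM in LM2 (1.63 ± 0.28, limma, adjusted p 0.0165). CTSB overlaps an entry on the same strand and PLAU one on the opposite strand. ADAM19 and ADAMTS17 were the remaining 2 called higher.

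The 3 genes lower in LM2 were ADAMTS1, ADAMTS12 and EFEMP1. ADAMTS1, a protease of versican and aggrecan studied in bone metastasis, was at 30.8 and 55.3 FPKM in BM1 and 1.34 and 0.944 FPKM in LM2 (-4.31 ± 0.31, limma, adjusted p 0.000401). ADAMTS12 was at 14.5 and 16.5 FPKM in BM1 and 4.53 and 5.51 FPKM in LM2. No gene was called among the transcription factors (4 at an unadjusted p under 0.05 in limma), other MMPs (1), other inhibitors (0) or BSG partners (1). These unadjusted counts were of 16, 4, 3 and 7 tested, beside 3114 of all 13928 genes.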

How the data were processed

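RNA of 4 libraries, 1 per line and treatment, was analysed from 1 table of FPKM values that the authors deposited, with the depth of each library inferred from steps of the low values. Per the submitters' processing notes, STAR 2.5.3a, Cuffdiff 2.2.1 and GRCh37 were named, with no role or order. The sources used here do not give the annotation or the use of strand. Of 20369 entries, 40 with 3 repeated gene IDs were left out. No value is 0, so genes without fragments may be missing from the table. The depth was fitted on 1623 genes with 1 transcript in GENCODE 29, over 600 bases and under 0.5 FPKM: 36.1% to 44.1% of products of FPKM and length up to about 10 fragments lay within 0.02 of a whole number, against a median of 2.34% to 3.09% for other steps. Most values were not whole, so no count test was run. Fragments per gene use the longest transcript.

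Differences were taken on log2(FPKM + 1). Genes with a mean of at least 1 FPKM were tested with limma 3.58.1 (R 4.3.3, not trended, not robust). A run on simulated data used independent noise and the same change in both lines. That run checks the code, not the fit to these data. A control and a knockdown library of 1 line are paired by that line. P-values are two-sided, and the threshold is 0.05. The knockdown contrast takes the lines as replicates. The line contrast takes the control and knockdown libraries of each line as replicates, which are not independent cultures of the same treatment. With 1 residual degree of freedom the p-values of both contrasts rest on how far the lines differ in the knockdown change. The variance is moderated over all genes. Spread between cultures of a line, and technical spread, are not measured apart from that difference. The members, the lists and the rule for named genes were chosen with earlier results of these data known. The rule names all members, HNRNPM, per list and contrast the 2 that differ most on average, and the 5 genes nearest to 1 member per contrast. Genes called but outside this rule, ADAM8 and ADAM15 (not called), and the neighbours of MMP1, were named after their values were seen. Alternatives were pseudocounts of 0.1 and 0.5, no filter, size factors, quantile normalization, no pairing, leaving out each library and a 1.5-fold rule. Removal of a trend with transcript length and GC content was added after seeing the data. The result of 1 other gene is not reported here.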

Additional observations from a re-analysis of the deposited data

Results flagged for a closer look

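Of the members and the genes named by rule from the lists, 7 had a knockdown library above its control in one line and below it in the other. Over all 65 other genes of the pathway 13 did. FBXO32, named by rule as near to MMP2, also did (-0.36 in BM1 and 1.75 in LM2). Differences are on the log2(FPKM + 1) scale, and none of these contrasts between lines was tested, because each rests on 4 single libraries. The LM2 difference minus the BM1 difference was 0.70 for TIMP2 and 1.36 for TIMP3, the 2 members concerned. Among the other genes of the pathway it was 1.83 for SPARC (-0.44 in BM1 and 1.39 in LM2), 1.02 for ADAM19 (-0.65 and 0.38), 0.96 for TFPI2 (-0.84 and 0.12), 0.77 for MMP19 (-0.18 and 0.59) and -1.09 for ADAMTS1 (0.82 and -0.27). Opposite signs were found in 30.9% of all genes.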

How the results depend on the processing

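For the 7 members above the filter, pseudocounts, size factors, quantile normalization and removal of the length and GC trend left every count of 2-fold differences as it was. The 1.5-fold rule raised the members lower in the BM1 knockdown from 2 to 4, those lower in the LM2 knockdown from 2 to 3, those higher in LM2 among controls from 1 to 2 and among knockdown libraries from 3 to 4. The only sign of a member's difference that turned was that of BSG in BM1. In limma, the 762 genes called over all genes in the knockdown contrast became 27 with a pseudocount of 0.1, and 0 with no filter, under quantile normalization, with no pairing by line (no replicate block) or when any 1 library was left out (0 to 0). The 10 calls among the other genes of the pathway became 0 in each of these settings. At an unadjusted p under 0.05, limma gave 860 to 3735 genes where the count over all genes was 0. The 606 calls between lines became 216 with a pseudocount of 0.1, 0 without the filter, 104 with quantile normalization, 11 without the term for treatment and 6 to 28 without 1 library. The 15 among the other genes became 7, 0, 5, 2 and 0 to 2. The cause was not tested, except that fits on 3 libraries also lose the second term. The knockdown change of COL1A1 ranged from -0.00534 without the BM1 control to 3.35 without the LM2 control. Leaving out 1 library moved 6 of the 10 knockdown changes and 4 of the 15 line differences by over 1.5 times. In the latter, ADAMTS17 was 0.97 without the LM2 control, COL1A1 1.98 without the BM1 control, and EFEMP1 -0.58 and PLAU 0.92 without the BM1 knockdown. With either control left out, EFEMP1 was -1.95 (BM1) and -0.78 (LM2). Depth limits MMP2 in BM1 and MMP3.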
